A study of Mus musculus with 40 samples.

Results

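The NF-kB family consists of 5 subunits encoded by Rela, Rel, Relb, Nfkb1 and Nfkb2, and their mRNAs were followed in bone marrow-derived macrophages (BMDMs) after stimulation with lipopolysaccharide (LPS). The family was chosen with earlier results of these data known, and its members were then taken by gene symbol. All 5 were among the 27179 genes of the expression table and passed the filter on low values in each comparison. BMDMs are macrophages grown from bone marrow in L-cell conditioned medium, a source of the growth factor M-CSF. They came from 4 wild-type (WT) and 4 Cpeb4-/- adult male mice of a mixed C57BL/6J and 129 background, and the knockout was of the whole animal and not limited to myeloid cells. Cpeb4 encodes a protein that binds the 3′ untranslated region (3′-UTR) of mRNAs. Each culture was left untreated (0 hr) or received 10 ng/ml LPS, a bacterial cell wall component, for 1, 3, 6 or 9 hr, which gave 40 poly(A) RNA libraries in 10 groups of 4. Each mouse gave a library of every time, each of the 2 sequencing batches held 2 mice of each genotype, and no cage held both genotypes, so that cage and genotype cannot be told apart.

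NF-kB subunits act as dimers that bind DNA at kB sites. RELA, c-REL and RELB carry a transactivation domain, whereas NFKB1 and NFKB2 are made as the precursors p105 and p100, which are processed to p50 and p52 and lack such a domain. In resting macrophages, the dimers are held in the cytoplasm by IkB proteins. LPS binding to TLR4 activates the IKK kinases, IkB is degraded, and the dimers enter the nucleus, where inhibitor genes and several of the subunit genes are themselves among the targets. The values below are mRNA levels, and neither protein nor nuclear entry was measured. In a bulk sample, a lower level can come from fewer cells of a type or from less RNA per cell, and these cannot be told apart.

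All 8 macrophage markers examined, among them Csf1r, Adgre1 and Itgam, were expressed in both genotypes. Their summed level over all times was 18.98 to 19.49 in WT libraries and 18.65 to 19.14 in Cpeb4-/- libraries. The Cpeb4-/- range thus lay lower but overlapped that of WT, and this difference was not tested. Lyz2 had the highest mean of the 8 markers. On the deposited scale, which is a regularized log2 of counts (rlog), the summed levels of T cell, B cell, neutrophil, dendritic cell, NK cell, erythroid, mast cell and stromal markers reached at most 9.48. The filter of 5 reads was passed by 4 of 8 neutrophil and granulocyte markers (S100a8, S100a9, Ngp and Camp), 2 of 6 T cell markers (Cd4 and Lck), 1 of 5 B cell, 2 of 4 dendritic cell and 2 of 5 stromal markers, and by no NK cell, erythroid or mast cell marker. Cd3e, Ly6g and Elane, which define T cells, neutrophils and granulocyte progenitors, stayed below it. The part of such cells in the results was not tested. Cpeb4 itself overlapped between the genotypes at 0, 1, 3 and 9 hr, and at 6 hr the WT mean of 10.45 ± 0.26 (SD, n = 4) stood against 9.18 ± 0.45 for Cpeb4-/-. Gene-level values do not show which exons the reads came from, and at the other times the genotype rests on the labels. Replicate libraries correlated with r between 0.992 and 0.998 over the expressed genes. The table holds no read totals, so the depth behind a value cannot be read from it.

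To place the subunits beside each other, levels were expressed per kb of annotated exon, as the mean rlog minus log2 of the exon length. On this scale, Rela, Nfkb1, Nfkb2 and Relb lay close together in untreated WT BMDMs at 10.71, 10.45, 10.25 and 10.05, whereas Rel, which encodes c-REL, lay at 5.16. At 3 hr, Nfkb1 and Nfkb2 both lay at 12.25, above Rela at 11.76 and Relb at 11.61, and Rel lay at 7.57. Rel thus had the lowest level per kb throughout, and Rela had the highest level at 0 and 1 hr, whereas at 3 hr it was the Nfkb1 and Nfkb2 pair. Reads of Nfkb2 may be shared, because 11.6% of its annotated exon bases overlap the antisense RNA AC114539.1 and 6.52% overlap Psd on the opposite strand, and the library kit does not mark strand.

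**Figure D1:**
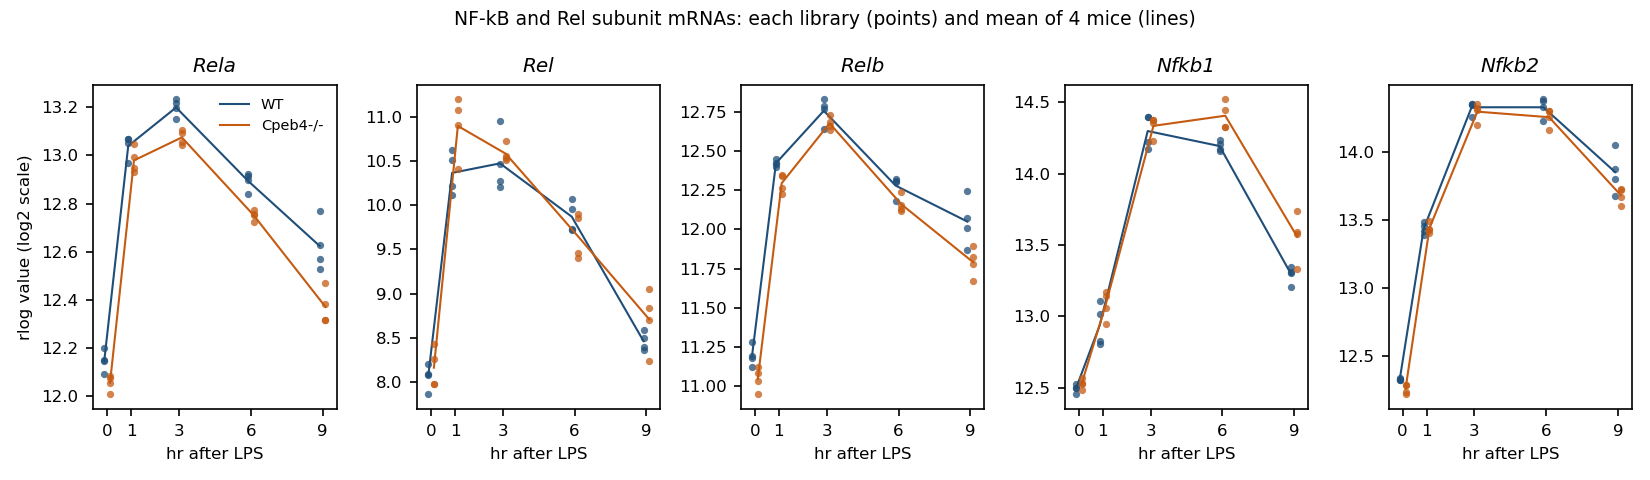
Levels of the 5 subunit mRNAs (rlog, a log2 scale, with a separate range for each gene) against hours after LPS, with a point for each library and a line through the mean of 4 mice for WT (blue) and Cpeb4-/- (orange). Rela, Rel and Relb had fallen well below their maximum at 6 hr, whereas Nfkb1 and Nfkb2 stayed near theirs until 6 hr.

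LPS raised all 5 subunit mRNAs within 1 hr in both genotypes. The background was high, since 33.9% of 13100 tested genes changed from 0 to 1 hr in WT and 43.8% of 13116 in Cpeb4-/- (limma, Benjamini-Hochberg adjusted p under 0.05). Rel changed the most, to 4.95 times its untreated level in WT and 6.66 times in Cpeb4-/-, and Nfkb1 the least, to 1.36 and 1.47 times. From 1 to 3 hr, 4 of 5 members rose in each genotype, beside 60.1% of tested genes called in WT and 64% in Cpeb4-/-. From 3 to 6 hr, Rela, Rel and Relb fell in each genotype (63.7% and 64.4% of genes called), and Nfkb1 and Nfkb2 did not pass the test. All 5 fell from 6 to 9 hr (51.4% and 53.6%). At 9 hr all 5 were still above their untreated level in both genotypes (71.5% and 72.8%).

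Rela encodes the main transactivating partner of p50. Untreated WT libraries held 12.15, 12.09, 12.20 and 12.15 (mice 25, 69, 87 and 88), and at 3 hr they held 13.20, 13.22, 13.23 and 13.15. The untreated Cpeb4-/- libraries held 12.06, 12.01, 12.09 and 12.08 (mice 2, 3, 55 and 62), and at 3 hr 13.04, 13.06, 13.09 and 13.10. All 8 mice thus gained about as much, with a maximum of 1.99 to 2.18 times the untreated level, the smallest gain of the 5 members. The maximum fell at 3 hr in 7 of the 8 mice, and at 1 hr in Cpeb4-/- mouse 2. The step from 1 to 3 hr was small, 0.16 in WT (adjusted p = 0.006) and 0.10 in Cpeb4-/- (adjusted p = 0.032), and quantile normalization, which gives every library the same distribution of values, turned it to a called decrease of -0.18 in both genotypes. In Cpeb4-/- the step was also lost without mouse 3, 55 or 62. Quantile normalization also turned the 9 hr against 0 hr change of Rela in Cpeb4-/- from 0.31 to -0.07, where it was no longer called (adjusted p = 0.16), and that in WT from 0.48 to 0.05 (adjusted p = 0.33). The 6 to 9 hr step of Rela in WT, -0.27, became -0.02 (adjusted p = 0.71). The number of genes with a mean rlog of 12 or more differed between the times, from 1020 in untreated WT to 1589 in WT at 6 hr.

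Rel encodes c-REL, which activates Il12b and Il23a among others. In WT it went from 8.21, 8.09, 7.86 and 8.08 at 0 hr (mice 25, 69, 87 and 88) to 10.51, 10.62, 10.11 and 10.22 at 1 hr, and was back at 8.36, 8.49, 8.40 and 8.59 at 9 hr. In Cpeb4-/- it went from 7.97, 8.43, 7.98 and 8.26 (mice 2, 3, 55 and 62) to 10.41, 11.20, 10.90 and 11.07, and at 9 hr to 8.24, 9.06, 8.70 and 8.84. Rel had the steepest rise and the most complete return of the family. Each mouse reached 4.93 to 7.58 times its untreated level, and only 2.78% to 11.2% of that rise, on the linear scale, was left at 9 hr. The maximum was at 1 hr in 2 WT and 3 Cpeb4-/- mice and at 3 hr in the others. From 1 to 3 hr the difference in Cpeb4-/- was -0.31 (adjusted p = 0.11), and it was called with the mouse as a block (adjusted p = 0.015) or without mouse 2 (adjusted p = 0.0064). The 9 hr against 0 hr change, 0.40 in WT and 0.55 in Cpeb4-/-, was called (adjusted p = 0.013 and 0.0067), but not without WT mouse 69 (adjusted p = 0.053) or Cpeb4-/- mouse 55 (adjusted p = 0.060).

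Relb encodes the subunit that pairs with p52 in the alternative pathway. In WT it rose from 11.12, 11.20, 11.28 and 11.18 at 0 hr (mice 25, 69, 87 and 88) to 12.79, 12.77, 12.83 and 12.64 at 3 hr. In Cpeb4-/- it rose from 11.08, 10.95, 11.03 and 11.12 (mice 2, 3, 55 and 62) to 12.63, 12.69, 12.66 and 12.73. All 8 mice peaked at 3 hr, at 2.76 to 3.34 times the untreated level, and no untreated library came near a treated one. At 9 hr, 34.1% to 54.1% of the rise was left in WT mice and 27.7% to 39.0% in Cpeb4-/- mice, ranges that overlap. In WT, quantile normalization ended the calls for the 1 to 3 hr step (0.33, against 0.07 after it, adjusted p = 0.36) and the 6 to 9 hr step (-0.23, against -0.03, adjusted p = 0.77).

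Nfkb1, whose product is processed to p50, rose late. In WT it was 12.52, 12.49, 12.45 and 12.50 at 0 hr (mice 25, 69, 87 and 88), still only 13.02, 13.10, 12.81 and 12.83 at 1 hr, and then 14.22, 14.40, 14.17 and 14.40 at 3 hr. In Cpeb4-/- it was 12.49, 12.53, 12.52 and 12.57 (mice 2, 3, 55 and 62), then 12.94, 13.14, 13.05 and 13.17, and 14.23, 14.36, 14.38 and 14.37. Its 1 to 3 hr rise, 2.57-fold in WT and 2.39-fold in Cpeb4-/-, thus exceeded its rise in the first hour. The maximum came at 3 hr in 3 WT mice and 1 Cpeb4-/- mouse, and at 6 hr in 1 WT and 3 Cpeb4-/- mice. Between 3 and 6 hr the change was -0.11 in WT (adjusted p = 0.15) and 0.07 in Cpeb4-/- (adjusted p = 0.37), and with quantile normalization it was a called decrease in both, of -0.44 and -0.18.

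Nfkb2, whose product p100 also acts as an inhibitor, rose at both early steps and had the largest median share of its rise left at 9 hr. It was 12.32, 12.32, 12.34 and 12.34 in untreated WT (mice 25, 69, 87 and 88), 14.36, 14.35, 14.35 and 14.25 at 3 hr, and 13.88, 14.05, 13.80 and 13.68 at 9 hr. In Cpeb4-/- it was 12.22, 12.24, 12.29 and 12.29 (mice 2, 3, 55 and 62), then 14.19, 14.35, 14.32 and 14.31, and at 9 hr 13.61, 13.73, 13.72 and 13.67. Each mouse reached 3.78 to 4.33 times its untreated level, and a median of 59.4% of the rise in WT and 54.5% in Cpeb4-/- was left at 9 hr. The 3 and 6 hr levels were indistinguishable in WT, with a difference of -8e-05 (95% confidence interval -0.12 to 0.12), and overlapped in Cpeb4-/-. With quantile normalization, Nfkb2 had a called decrease of -0.30 between 3 and 6 hr in each genotype.

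Because several subunit genes are themselves NF-kB targets, the promoter windows available from RefSeq (GRCm38.p6, 250 bases before to 50 after a start site) were searched for the 10-base kB consensus on both strands. Windows were found for Rel, Rela and Nfkb2. Those of Rel and Nfkb2 hold the consensus and are shown with matches in capitals.
Rel, chr11:23770920-23771219, minus strand: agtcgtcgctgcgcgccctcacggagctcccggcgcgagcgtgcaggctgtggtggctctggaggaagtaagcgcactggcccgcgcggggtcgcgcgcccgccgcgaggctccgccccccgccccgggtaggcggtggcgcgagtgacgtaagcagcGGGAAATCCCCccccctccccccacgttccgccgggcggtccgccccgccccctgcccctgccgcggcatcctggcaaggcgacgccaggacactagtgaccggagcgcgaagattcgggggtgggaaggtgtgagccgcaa
Nfkb2 first window, chr19:46304487-46304786, plus strand: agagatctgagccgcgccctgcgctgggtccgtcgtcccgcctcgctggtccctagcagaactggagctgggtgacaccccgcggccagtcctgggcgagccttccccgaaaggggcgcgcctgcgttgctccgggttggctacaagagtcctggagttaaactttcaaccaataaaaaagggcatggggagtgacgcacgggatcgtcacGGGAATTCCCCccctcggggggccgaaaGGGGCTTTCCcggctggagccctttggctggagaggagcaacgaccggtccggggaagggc
Nfkb2 second window, chr19:46305445-46305744, plus strand: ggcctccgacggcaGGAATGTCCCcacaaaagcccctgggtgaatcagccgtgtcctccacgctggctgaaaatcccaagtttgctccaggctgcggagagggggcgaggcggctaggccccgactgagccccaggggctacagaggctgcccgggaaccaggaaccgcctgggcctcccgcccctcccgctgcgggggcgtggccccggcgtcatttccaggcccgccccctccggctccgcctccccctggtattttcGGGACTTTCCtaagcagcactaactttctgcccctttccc
The Rel window holds 2 matches that overlap by all but 1 base, from -92 to -82 relative to the start site. The first Nfkb2 window holds overlapping matches from -39 to -29 and 1 more from -11 to -2, and the second holds matches from -236 to -227 and from 11 to 20. The remaining Nfkb2 window overlaps the second and repeats its last match. The Rela window holds no match to these letters. Of all 32851 windows, 8.46% hold at least 1 match. These are matches of letters, and binding was not measured.

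The members also differ in their mRNA. Rel has a 7.47 kb longest transcript with a 3′-UTR of 5418 bases and 42.5% GC, whereas Rela, Relb and Nfkb2 have 3′-UTRs of 714, 336 and 634 bases and transcripts of 59.4%, 61.1% and 59.4% GC. Nfkb1 has 53.1% GC overall but 39.6% in its 700-base 3′-UTR. The pentamer ATTTA, the core of AU-rich elements, occurs 12 times in the 3′-UTR of Rel, 4 times in that of Nfkb1, once in that of Nfkb2 and not in those of Rela and Relb. It is common, since 68.7% of 11918 expressed genes with a 3′-UTR hold it. TTATTTATT, a stricter AU-rich form that 7.83% of these genes hold, occurs only in Rel among the members. TTTTAT, a form of the cytoplasmic polyadenylation element that CPEB proteins bind, occurs 4 times in Rel and 3 times in Nfkb1 and not in the others, and 56% of genes hold it. The variant TTTTAAT, held by 31.1% of genes, occurs 3 times in Rel and once each in Nfkb1 and Nfkb2. The study also counted other forms of the element, among them TTTTGT, which were not searched here. The AU-rich site of Rel and the last elements of Nfkb1 are shown on the sense strand with the motif in capitals, from the GENCODE transcripts of GRCm38.
Rel, base 4413 of the 3′-UTR: cccagactTTATTTATTttttttag
Nfkb1, base 633: aatgttgaATTTAtaaatgct
Nfkb1, base 646: taaatgctATTTActttttta
Nfkb1, base 654: atttacttTTTTATtttacttt
Nfkb1, base 665: tattttacTTTTATaataaaag
The 4 Nfkb1 sites lie within 68 bases of the transcript end.

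WT and Cpeb4-/- BMDMs were then compared at each time, the comparison the study was designed for. Before 6 hr none of the 5 members passed the threshold. At 0 hr, 1.31% of 13095 genes were called and 2 members had an unadjusted p under 0.05. At 1 hr, 1.91% of 13118 genes were called and again 2 members were under 0.05 unadjusted, and at 3 hr 3.68% of 13083 genes and 1 member. The Rela difference was -0.09 at 0 hr (adjusted p = 0.28), -0.06 at 1 hr (adjusted p = 0.36) and -0.12 at 3 hr (adjusted p = 0.12), where it was called without WT mouse 88 (adjusted p = 0.038). Leaving out that mouse called 2584 of 13079 genes at 3 hr, against 481 in the main fit. The Relb difference was -0.15 at 0 hr (adjusted p = 0.19) and -0.13 at 1 hr (adjusted p = 0.099). At 6 hr, 2 of 5 members were called, beside 16.3% of 13039 genes, with Nfkb1 higher and Rela lower in Cpeb4-/-. At 9 hr, 1 of 5 was called, Rela, beside 7.91% of 13008 genes. The differences were small, at most 20.3% in either direction at 6 and 9 hr.

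**Figure D2:**
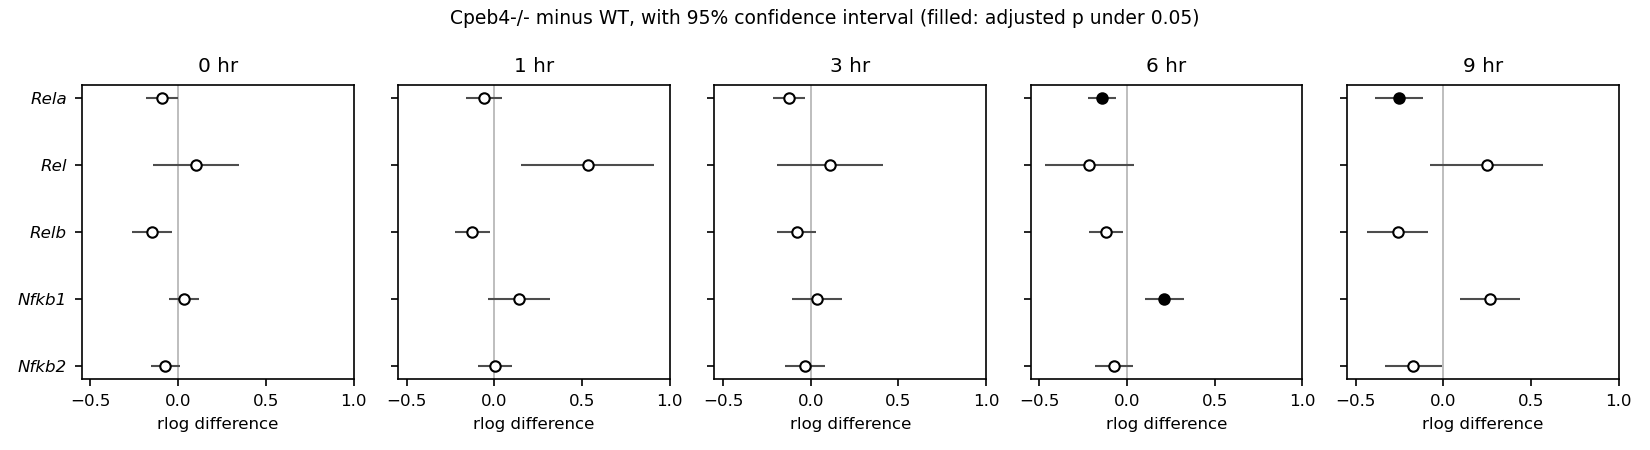
Difference in rlog between Cpeb4-/- and WT for each subunit at each time, with its 95% confidence interval from limma (filled points, adjusted p under 0.05). Rela had a negative difference at all 5 times, though at 1 hr its sign turned after the correction for GC content, and passed the threshold at 6 and 9 hr, Nfkb1 passed it at 6 hr only, and the interval of Rel was the widest at every time.

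Rela was lower in Cpeb4-/- at 6 hr. The WT libraries held 12.92, 12.91, 12.90 and 12.84 (mice 25, 69, 87 and 88) and the Cpeb4-/- libraries 12.76, 12.72, 12.77 and 12.75 (mice 2, 3, 55 and 62), and no libraries of the groups overlapped. Groups also did not overlap, without a call, for Rela at 0 and 3 hr, Nfkb2 at 0 hr and Relb at 1 hr. How many other genes separate the genotypes in this way was not counted. The Rela difference at 6 hr was -0.14 (SE 0.036, adjusted p = 0.018), a change of -9.44%, and it was -0.14 in each batch. It was called under 11 of 16 other settings. Quantile normalization reduced it to -0.07 (adjusted p = 0.25), and leaving out WT mouse 25 or 69 or Cpeb4-/- mouse 2 or 3 gave adjusted p between 0.051 and 0.057.

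At 9 hr, WT libraries held 12.63, 12.77, 12.57 and 12.53 and Cpeb4-/- libraries 12.47, 12.32, 12.38 and 12.31 for Rela, again without overlap. The difference was -0.25 (SE 0.062, adjusted p = 0.034), with -0.26 in batch 1 and -0.24 in batch 2, a change of -16.1%. It was called under 8 of 16 other settings and kept its direction in all of them. It was not called without the filter on low values (adjusted p = 0.13), without the trend in the variance (adjusted p = 0.067), or when any of WT mice 25, 69 and 87 or Cpeb4-/- mice 3, 55 and 62 was left out (adjusted p = 0.071 to 0.10).

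Nfkb1 was higher in Cpeb4-/- at 6 hr. WT libraries held 14.16, 14.24, 14.21 and 14.17 and Cpeb4-/- libraries 14.33, 14.44, 14.52 and 14.33, without overlap. The difference was 0.21 (SE 0.050, adjusted p = 0.014), or 15.9% higher, with 0.22 in batch 1 and 0.20 in batch 2. It was called under 15 of 16 other settings and lost only without the filter on low values (adjusted p = 0.080). At 9 hr, WT libraries held 13.31, 13.34, 13.30 and 13.21 and Cpeb4-/- libraries 13.33, 13.73, 13.59 and 13.58. The library of Cpeb4-/- mouse 2 lay within the WT range and the other 3 above it. The difference of 0.27 (SE 0.078) had an adjusted p of 0.061, with 0.40 in batch 1 and 0.14 in batch 2. It was called without mouse 2 (0.34, adjusted p = 0.0015), with the mouse as a block (adjusted p = 0.0031), with batch as a covariate (adjusted p = 0.043) and after quantile normalization (adjusted p = 0.030). Of all genes, 1029 were called at 9 hr in the main fit. Leaving out mouse 2 called 4575, the mouse block 2378, the batch covariate 1781 and quantile normalization 944.

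Relb and Nfkb2 had lower means in Cpeb4-/- at 9 hr that did not pass the threshold. Relb held 12.08, 12.24, 12.01 and 11.87 in WT and 11.89, 11.67, 11.82 and 11.78 in Cpeb4-/-, where only WT mouse 88 fell among the Cpeb4-/- values. Its difference was -0.26 (95% confidence interval -0.43 to -0.09, adjusted p = 0.068). That of Nfkb2 was -0.17 (-0.33 to -0.01, adjusted p = 0.17). With the mouse as a block in the fit of all 40 libraries, both were called (adjusted p = 0.00063 for Relb and 0.0095 for Nfkb2). Relb was also called with batch as a covariate (adjusted p = 0.028), without Cpeb4-/- mouse 2 (adjusted p = 0.013) and without WT mouse 88 (adjusted p = 0.040), and at 6 hr only without WT mouse 88 (-0.15, adjusted p = 0.038). At 9 hr, the genes called numbered 1029 in the main fit, 2378 with the mouse block, 1781 with batch and 4575 without mouse 2. Without WT mouse 88 they numbered 701 at 9 hr, and 1580 at 6 hr against 2129 in the main fit.

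Rel had the largest SD between mice of the 5 members in every group but WT at 9 hr, with an SD between 0.10 and 0.35 over the 10 groups. Its values at 1 hr exceeded the whole WT range in Cpeb4-/- mice 3, 55 and 62, and the library of mouse 2 lay within the WT range. The difference was 0.53 (95% confidence interval 0.15 to 0.91, adjusted p = 0.089). It was called with the mouse as a block in the fit of all 40 libraries (adjusted p = 0.011), without mouse 2 (0.69, adjusted p = 0.036) and without WT mouse 69 (0.62, adjusted p = 0.045). At 6 hr the difference was -0.22 (-0.47 to 0.04), and at 9 hr 0.25 (-0.07 to 0.57), with 0.47 in batch 1 and 0.02 in batch 2. It was called at 9 hr without Cpeb4-/- mouse 2 (0.40, adjusted p = 0.0061) and at 3 hr without WT mouse 88 (0.27, against 0.11 with all mice, adjusted p = 0.031). These settings also called more genes of the whole table. At 1 hr, 251 were called in the main fit, 4323 with the mouse block, 721 without mouse 2 and 2440 without WT mouse 69. The calls went from 1029 to 4575 at 9 hr without mouse 2, and from 481 to 2584 at 3 hr without WT mouse 88. Rel lies on chromosome 11, 8.1 Mb from Cpeb4 (GRCm38.p6).

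Whether the genotype difference itself changed after LPS was tested against the difference at 0 hr, in 1 fit of all 40 libraries and 13103 genes. None of the 5 members was called at 1 hr (0.00763% of genes called), 3 hr (0.206%), 6 hr (2.94%) or 9 hr (1.76%), and no other limma setting on the uncorrected values called one. At 9 hr, 2 of the 5 had an unadjusted p under 0.05, Rela with a change in the difference of -0.16 (SE 0.057, adjusted p = 0.17) and Nfkb1 with 0.23 (SE 0.095, adjusted p = 0.26). No member had one at 1, 3 or 6 hr. On these values, the late differences of Rela and Nfkb1 are not shown to differ from those before LPS, and that of Rela at 9 hr passed the threshold only after the correction for GC content described below.

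A difference between 2 members of the same library does not change when all values of that library shift by 1 amount. Before LPS, Nfkb1 exceeded Rela by 0.34 ± 0.07 (SD, n = 4) for WT mice and by 0.47 ± 0.04 for Cpeb4-/- mice. At 6 hr the WT libraries held 1.23, 1.32, 1.31 and 1.33 (mice 25, 69, 87 and 88) and the Cpeb4-/- libraries 1.57, 1.72, 1.75 and 1.58 (mice 2, 3, 55 and 62). At 9 hr they held 0.68, 0.57, 0.74 and 0.68 in WT and 0.86, 1.42, 1.21 and 1.26 in Cpeb4-/-. The groups did not overlap at 0, 6 and 9 hr, with mouse 2 the closest to WT at 9 hr, and they overlapped at 1 and 3 hr. This pair joins the member called higher at 6 hr with the one called lower. Of the 10 pairs of members, 2, 0, 0, 4 and 3 did not overlap at 0, 1, 3, 6 and 9 hr. Nfkb1 minus Nfkb2 was also apart at 0, 6 and 9 hr, Nfkb1 minus Relb at 6 and 9 hr, and Nfkb1 minus Rel at 6 hr. Every pair that did not overlap holds Nfkb1, so that the counts repeat the values of this gene. These differences are given with no test, since each repeats the values above, and how often pairs of genes outside the family overlap was not counted.

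**Figure D3:**
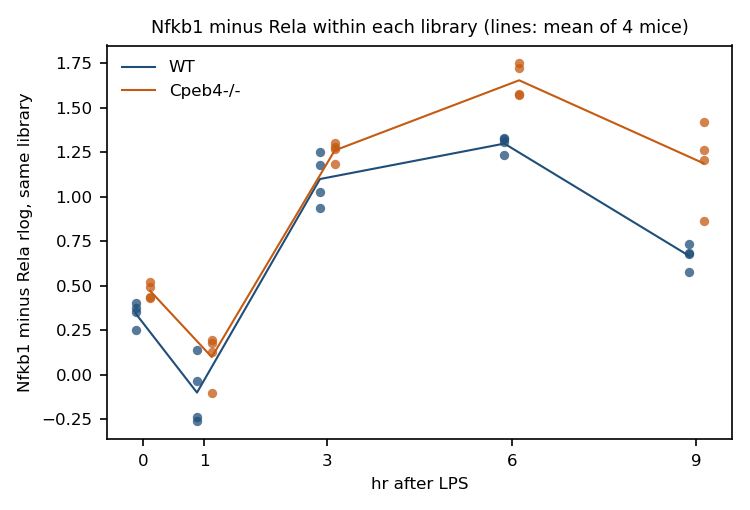
Nfkb1 minus Rela rlog within each library (log2 units) against hours after LPS, for WT (blue) and Cpeb4-/- (orange), with lines through the mean of 4 mice. The 6 hr points spanned 1.23 to 1.33 for WT mice and 1.57 to 1.75 for Cpeb4-/- mice.

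Within a group, some members varied together. After removal of the 10 group means, Rel and Nfkb1 varied together over the 40 libraries (r = 0.79), as did Rela and Relb (r = 0.80), whereas Rel and Rela varied in opposite directions (r = -0.58). Nfkb2 varied with Relb (r = 0.56), Nfkb1 (r = 0.51) and Rela (r = 0.45). These points share libraries and mice, and the values are a description. The deviations were also set against base composition. The tested genes were divided into 4 equal bins of transcript GC, and the mean rlog of the lowest bin minus that of the highest, called the GC index, moved with Rel (r = 0.83), Nfkb1 (r = 0.65), Rela (r = -0.71), Relb (r = -0.75) and Nfkb1 minus Rela (r = 0.81), and less with Nfkb2 (r = -0.18). Rel is in the lowest bin, Nfkb1 in the one below the highest, and Rela, Relb and Nfkb2 in the highest. The index was higher in Cpeb4-/- than in WT on average at each time. The excess was 0.0975 at 0 hr, where the groups did not overlap, and 0.154, 0.0653, 0.0306 and 0.082 at the later times in order. Its part in the genotype differences was examined with the correction below.

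**Figure D4:**
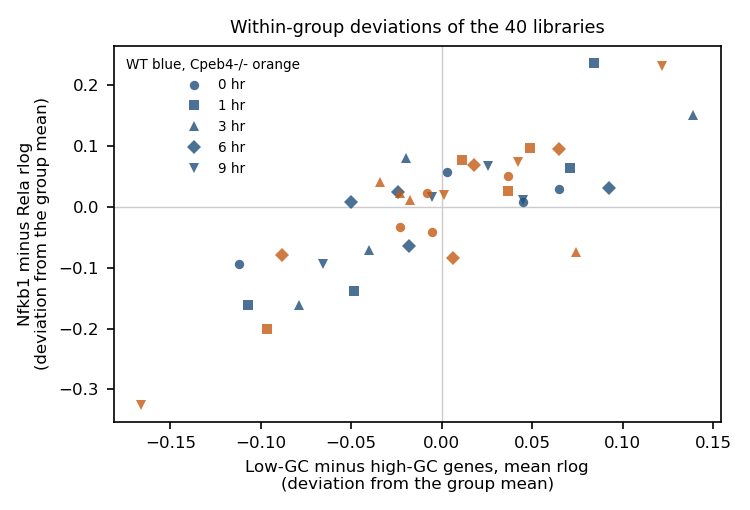
Deviation of Nfkb1 minus Rela from its group mean against the deviation of the GC index (mean rlog of low-GC genes minus that of high-GC genes), both in log2 units, with a point for each of the 40 libraries (blue WT, orange Cpeb4-/-, shape by time). Libraries with a higher index tended to have a larger Nfkb1 minus Rela value (r = 0.81).

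The genotype fits were therefore repeated, as an alternative chosen after seeing the data, on values from which each library's smoothed trend on transcript GC had been removed within its time. The calls at 6 and 9 hr were the same. Rela was -0.11 at 6 hr (adjusted p = 0.032) and -0.21 at 9 hr (adjusted p = 0.020), and Nfkb1 was 0.24 at 6 hr (adjusted p = 0.0049) and 0.28 at 9 hr (adjusted p = 0.055). At 0 hr, Rela was -0.03 instead of -0.09 and Relb -0.08 instead of -0.15. At 1 hr, Rela was 0.02 instead of -0.06, so that its direction there depends on this correction. For Rel at 1 hr, the 16 other settings, this correction included, gave 0.43 to 0.69, and the correction was not among the 3 that called it. The change in the difference of Rela from 0 to 9 hr was -0.17, and here it passed the threshold (adjusted p = 0.017).

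Genes whose pattern over the 40 libraries was most like that of a subunit were sought among 6040 genes with group means that span at least 1 log2 unit. Closest to Rela were Nfkbib (r = 0.99), which encodes the inhibitor IkB-beta, the adhesion molecule gene Icam1 (r = 0.98) and the collagen gene Col11a2 (r = 0.98). Closest to Rel were Zfp263 (r = 0.97), Noct (r = 0.97), which encodes the rhythmic factor nocturnin, and the macrophage growth factor gene Csf1 (r = 0.97). Relb was closest to Nfkbib (r = 0.99), the IkB-epsilon gene Nfkbie (r = 0.98) and Rela itself (r = 0.98). Nfkb1 was closest to the ETS factor gene Etv6 (r = 0.99), the elongation factor gene Aff1 (r = 0.98) and Zfp800 (r = 0.98). Neither these genes nor those closest to Rel are in the pathway lists below. Nfkb2 was closest to the chemokine gene Ccl22 (r = 0.99), the co-chaperone gene Stip1 (r = 0.99) and Tnip1 (r = 0.99), a partner of A20. Many genes share the LPS time course, and r is over libraries that share mice.

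Around the subunits, 4 lists of pathway genes were counted at 6 hr, where 16.3% of all genes were called, 835 higher and 1294 lower, with a median difference of -0.02 over all genes tested. The lists were chosen with earlier results of these data known. After quantile normalization, 1026 genes of the whole table were higher and 995 lower, and after the GC correction 1103 and 1285. The excess of lower genes thus depended on the normalization, and the lists were counted in the main fit only. Of 10 inhibitors, 5 were lower in Cpeb4-/- and none higher, with a median difference of -0.13. Nfkbib went from 12.03 ± 0.05 (SD, n = 4) in WT to 11.72 ± 0.05 in Cpeb4-/-, a difference of -0.31 (SE 0.041, adjusted p = 0.00071). Tnfaip3, which encodes the ubiquitin editing enzyme A20, went from 15.31 ± 0.03 to 15.08 ± 0.09, a difference of -0.23 (SE 0.051, adjusted p = 0.010) that quantile normalization reduced to -0.10 (adjusted p = 0.15).

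Of the 9 alternative pathway genes tested, 5 were lower and none higher, with a median of -0.19, and Tnfrsf13c did not pass the filter. Tnfrsf12a, the receptor gene of TWEAK, differed by -0.53 (SE 0.097, adjusted p = 0.0040) and Tnfrsf11a, which encodes RANK, by -0.44 (SE 0.066, adjusted p = 0.0012). Of 16 genes for IKK and the canonical upstream signal, 2 were lower and none higher (median -0.05), the LPS receptor gene Tlr4 with a difference of -0.24 (adjusted p = 0.047) and the kinase gene Ripk1 with -0.15 (adjusted p = 0.045). Tlr4 was called under 6 and Ripk1 under 5 of 16 other settings.

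Of 28 known NF-kB targets, Cpeb4-/- BMDMs had 4 at a higher and 6 at a lower level at 6 hr, with a median difference of -0.10. The neutrophil chemokine gene Cxcl1 went from 10.64 ± 0.17 to 11.34 ± 0.21 (0.70, SE 0.10, adjusted p = 0.0010), and Il23a, which encodes a subunit of IL-23, from 3.78 ± 0.29 to 4.46 ± 0.15 (0.68, SE 0.16, adjusted p = 0.014). Il23a was near the filter on low values, with WT means of 2.77 at 0 hr and 3.17 at 9 hr. It was called under 14 of 15 other settings. Among the 6 lower targets, Icam1 differed by -0.59 (adjusted p = 0.00012) and Il12b by -0.53 (adjusted p = 0.045). At 9 hr, 7.91% of all genes were called, 610 higher and 419 lower, with a median difference of 0.004 over all genes tested. Of the lists, 3 inhibitors, 3 alternative pathway genes, 2 upstream genes and 5 targets were lower, and no gene of the 4 lists was higher. At 0, 1 and 3 hr, 1.31%, 1.91% and 3.68% of all genes were called. Before 6 hr, 1 upstream and 1 alternative pathway gene were lower at each of 0, 1 and 3 hr. Of the targets, none was called at 0 hr, 1 was higher at 1 hr, and at 3 hr the counts were 3 higher and 2 lower. No inhibitor was called at 0, 1 or 3 hr.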

How the data were processed

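RNA from the 40 libraries was sequenced by the authors, aligned with STAR 2.3.0e to mm10 and counted per gene with featureCounts, as given in the study's methods and the submitters' processing notes. The deposited values are log2 values made by the authors with DESeq2's regularized log, which corrects for library size and shrinks low counts towards the gene mean. They span -2.40 to 19.4 over 27179 genes, of which 6395 are at 0 in every library. No counts were used here, so no count test was run, and depth and counting error are unknown. All value columns matched a labelled library, and groups, mice and batches came from the labels.

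Each comparison was fitted with limma 3.58.1 in R 4.3.3, with a trend in the variance, after genes with a mean rlog under log2 of 5 reads were dropped. Benjamini-Hochberg adjustment ran over all genes tested, and calls were made at 0.05. The 5 fits of genotype used the 8 libraries of a time, those of time the 20 libraries of a genotype, and the change in the genotype difference all 40. With the mouse block, genotype was instead fitted over all 40 libraries, with a pooled spread and a shared correlation within a mouse. The scripts were tested on simulated data. Named genes were the 5 members, the 3 genes most like each, and, per list, the 2 called genes with the largest difference at 6 hr. Icam1 and Il12b were named in addition, since the target genes named by this rule were both higher. The members and the 4 gene lists were chosen with earlier results of these data known. Deviations from the group means were shared by libraries of 1 mouse (median r = 0.29 over 80 pairs, 68 of them above 0.1), and the labels give the mouse, so that a mouse block pairs times but not genotypes. Alternatives were no filter, a stricter filter, no trend, robust variances, quantile normalization, batch, the mouse block, leaving out each mouse and, chosen after seeing the data, removal of a lowess trend (span 0.3) on transcript GC content.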

Additional observations from a re-analysis of the deposited data

Results flagged for a closer look

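In 4 of the 50 groups of a gene, genotype and time, 1 library stood apart from the other 3, by a gap to its nearest neighbour, as a share of the group's whole range, above the critical value of Dixon's test. Chance alone gives about 1 such group in 20. Nfkb1 in Cpeb4-/- mouse 2 at 3 hr was 14.23 against 14.36 to 14.38 in the others (0.87 of the range). Nfkb2 in WT mouse 88 at 3 hr was 14.25 against 14.35 to 14.36 (0.927). Rela in WT mouse 69 at 1 hr was 12.97 against 13.05 to 13.07 (0.847). Relb in WT mouse 88 at 6 hr was 12.18 against 12.31 to 12.32 (0.898). The cause was not tested.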

How the results depend on the processing

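Of 1200 alternative values for the 5 subunits, 1121 kept their direction and their side of the threshold, 34 changed direction, 23 lost a call and 22 gained 1. Quantile normalization turned Nfkb1 from 3 to 6 hr in Cpeb4-/- to -0.184, Rela from 1 to 3 hr to -0.176 in WT and -0.179 in Cpeb4-/-, and Rela at 9 hr against 0 hr in Cpeb4-/- to -0.0661. It turned the genotype difference of Nfkb2 to 0.0219 at 3 hr and 0.0184 at 6 hr, and the change in the genotype difference since 0 hr to 0.102 for Nfkb2 at 6 hr and to 0.0163 at 3 hr and 0.0299 at 6 hr for Rela. The GC correction, chosen after seeing the data, gave 0.0183 for the genotype difference of Rela at 1 hr, and -0.00249 for Nfkb1 at 3 hr and -0.00519 for Relb at 6 hr in the change of that difference. Leaving out each mouse gave genotype differences of -0.00591 to 0.0714 for Nfkb1 at 3 hr, and of -0.0145 to 0.0197 at 1 hr and -0.0569 to 0.00141 at 3 hr for Nfkb2. It gave changes in the difference of -0.0326 to 0.0352 for Nfkb1 at 3 hr, -0.108 to 0.159 for Rel at 3 hr and -0.0358 to 0.0169 for Nfkb2 at 6 hr. In WT it gave -0.013 to 0.00916 for Nfkb2 from 3 to 6 hr and -0.101 to 0.221 for Rel from 1 to 3 hr.

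The number of genes called between the genotypes, 171, 251, 481, 2129 and 1029 at 0, 1, 3, 6 and 9 hr, was 43, 54, 90, 868 and 369 without the filter. With the replicate block, fitted over all 40 libraries, it was 414, 4323, 1393 and 2378 at 0, 1, 3 and 9 hr, and with batch as a covariate 146, 194 and 1781 at 1, 3 and 9 hr. Without the variance trend it was 230 at 3 hr. Leaving out each mouse gave 44 to 163 at 0 hr, 40 to 2440 at 1 hr (the highest without WT mouse 69), 76 to 2584 at 3 hr (the highest without WT mouse 88), 1347 to 2331 at 6 hr (the lowest without Cpeb4-/- mouse 2) and 387 to 4575 at 9 hr (the highest without Cpeb4-/- mouse 2). For the change in the difference, 1, 27, 385 and 231 genes were called at 1, 3, 6 and 9 hr. The replicate block gave 72, 1032 and 654 at 3, 6 and 9 hr, quantile normalization 227 at 6 hr, no filter 8 and the stricter filter 0 at 1 hr, and leaving out each mouse 0 to 2, 5 to 21, 84 to 391 and 89 to 226. The causes were not tested.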
